A study of Homo sapiens with 8 samples.

Results

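The high over bulk comparison of the screen focused on transcription factors (TFs) covered every gene with a guide in that library, 1445 of the 19121 genes targeted across both screens of the series. The gene was read from each guide's name, in front of the exon number that follows it. Of these genes, 1434 kept at least 3 guides after guides with a mean normalized count under 30 had been left out, and 11 did not. The cells were AsPC-1, a human pancreatic cancer line, and they expressed Cas9. They were infected with a library of guides aimed at DNA-binding domains, collected on day 8, fixed in methanol, stained for Serpin B5 and sorted by its level. Both groups shared the cell line, the guide library and the day. By design they differed in the sorted bin, which was high for one and the middle (bulk) for the other. The libraries also differed in depth, as given below. A low bin of the same screen, a second low and bulk pair counted over the same guides, and a genome-wide screen in the same cells served for comparison. With 1 library in each bin, no replicate error exists, no test was possible and none is given. The errors printed are the standard deviation (SD) among a gene's guides. The labels disagreed on the high library, whose title says high and whose description says bulk. It was taken as high because the title and the column of the table both say so. The second pair carries a genome-wide genotype label although its table holds the TF-focused guides, and it was kept apart.

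Serpin B5, the product of SERPINB5, is an epithelial serpin whose level the study took as a readout of KLF5 activity. KLF5 is a zinc finger activator of epithelial genes. In a sort of this kind, guides that raise the stained protein collect in the high bin and guides that lower it leave that bin. Members of the KLF family bind the same GC-rich motifs through zinc fingers at their C termini, and some, such as KLF3, act mainly as repressors by recruiting the CtBP corepressors. Guides in this library cut inside the DNA-binding domain, where in-frame as well as frameshift mutations tend to inactivate the protein.

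The guide sequences are not shown here, but the names of the guides give the coding exon that they cut. The coding parts of the exons named for KLF3 and KLF5 are shown because KLF3 had the highest score and KLF5 is the factor whose activity the stain was taken to read. They lie in exon 6 of KLF3 (hg38 chr4:38697082-38697260, plus strand) and exon 4 of KLF5 (hg38 chr13:73075708-73075883, plus strand), in the GENCODE release 44 canonical transcripts. Capitals mark codons of the cysteines and histidines that hold zinc.
KLF3: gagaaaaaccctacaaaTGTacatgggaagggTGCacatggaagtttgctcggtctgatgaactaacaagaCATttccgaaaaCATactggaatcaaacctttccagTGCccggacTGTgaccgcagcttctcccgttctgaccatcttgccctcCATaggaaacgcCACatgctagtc
KLF5: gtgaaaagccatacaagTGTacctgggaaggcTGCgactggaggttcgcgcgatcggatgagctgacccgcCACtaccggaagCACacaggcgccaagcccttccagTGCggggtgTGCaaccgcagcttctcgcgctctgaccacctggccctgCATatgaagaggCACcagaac
Over the 176 bases that can be set side by side without gaps, 126 were identical, or 71.6%. The GC content was 48.6% for KLF3 and 61.4% for KLF5. The next 2 stretches are shown for other leading genes, and each lies in the exon that the guides of its gene are named for. They are the basic region of the leucine zipper factor NFE2L2 (hg38 chr2:177231001-177231120, minus strand, exon 5) and the start of the forkhead domain of FOXC2 (hg38 chr16:86567513-86567632, plus strand, exon 1). Capitals mark the codons of the conserved DNA-contacting signature in NFE2L2 and of the opening signature of the domain in FOXC2.
NFE2L2: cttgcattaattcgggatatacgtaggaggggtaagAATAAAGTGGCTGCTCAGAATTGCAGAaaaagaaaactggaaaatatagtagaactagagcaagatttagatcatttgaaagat
FOXC2: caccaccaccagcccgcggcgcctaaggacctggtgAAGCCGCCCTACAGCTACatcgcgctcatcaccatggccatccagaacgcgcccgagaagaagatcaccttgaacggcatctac
The GC content of these stretches was 35.0% for NFE2L2 and 61.7% for FOXC2.

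The high library held 9122855 counts over 8739 guides (median 924 per guide) and the bulk library held 38031483 (median 4017). The reads carry no molecular identifiers in the sources used here, so they are PCR copies and counting errors understate the true error. Counting alone gave a median error of 0.05 on the log2 ratio of a guide. The 49 control guides that were kept had an SD of 0.33, ranged from -0.73 to 0.54 and centred on -0.13, and gene-targeting guides had an SD of 0.41. The same control guides spread more widely in low over bulk (SD 0.82) and in low over high (SD 0.69), so high over bulk was the narrowest of the 3 contrasts of this library. It was still wider than high over bulk of the genome-wide screen, where 994 control guides had an SD of 0.14.

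Few TF genes left the middle of the distribution. A gene counted as past the fold when the mean log2 ratio of its guides (its score) reached 0.58 in size, which is 1.5-fold, and at least 80% of its guides shared the sign. In the high bin 2 genes were richer, 0.139% of those tested, and 11 were poorer, 0.767%. Scores had a median of -0.02 and an SD of 0.20, and 97.8% lay between -0.5 and 0.5. Above 0 lay 651 genes, or 45.4%. With 1 library per bin these counts describe 2 libraries, and no count due to chance was worked out.

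**Figure D1:**
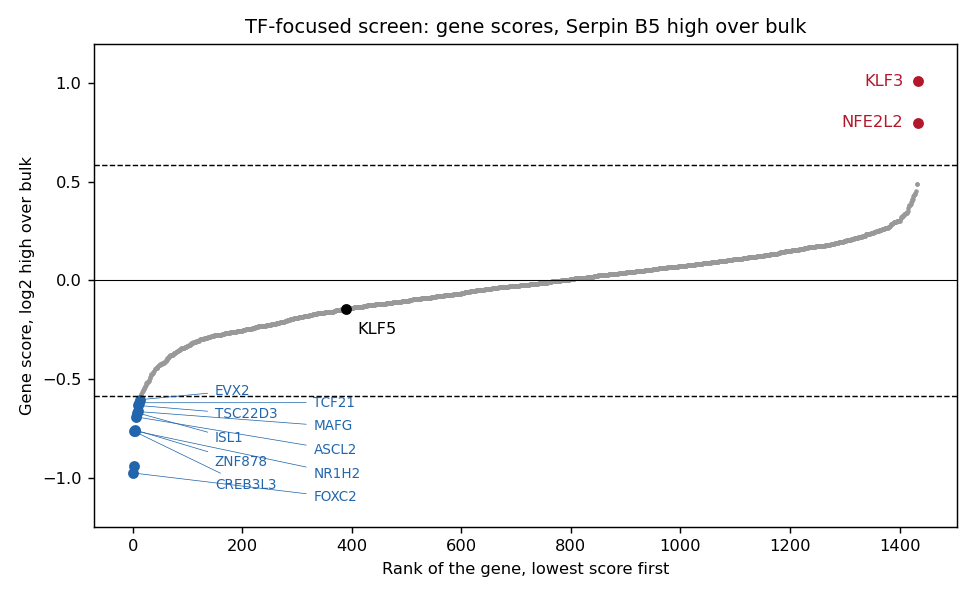
Gene scores (log2 of high over bulk, mean over guides) of the 1434 genes tested in the TF-focused screen, ranked from lowest to highest; dashed lines mark 1.5-fold. KLF3 and NFE2L2 (red) stand above the upper line, the 11 poorer genes (blue, 10 of them named) lie below the lower one, and KLF5 (black) sits at -0.14.

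KLF3 had the highest score of all, 1.01 ± 0.42 (SD, n = 6 guides), and was the only gene past a fold of 2. The mean normalized count of its guides was 2326 in the high library, 1078 in the bulk library and 2219 in the low library. All 6 guides were richer in the high bin. Their ratios were 0.36, 0.73, 0.95, 1.17, 1.38 and 1.48, and 5 of the 6 lay above the highest of the control guides. The guide with the largest ratio had 4968 normalized counts in the high bin and 1798 in the bulk. The guide with the smallest had 858 and 675. In low over bulk the same 6 guides were divided, from -1.48 to 1.86, with a score of 0.32 ± 1.25. In the order of the ratios above, low over bulk was -1.48, -0.59, 0.27, 1.47, 0.42 and 1.86. The guides at 1.17 and 1.48 were thus richer still in the low bin, and the guide at 0.36 was the poorest there.

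NFE2L2 followed at 0.80 ± 0.99 (SD, n = 5 guides). It encodes NRF2, a basic leucine zipper factor that turns on antioxidant and detoxifying genes. Its guides averaged 3955 normalized counts in the high library, 1788 in the bulk library and 1963 in the low library. Ratios of 4 guides ran from 0.84 to 1.58, each above every control guide, and the remaining guide had -0.91. That guide fell furthest in the low bin as well, at -4.26 against bulk, and 2 more that were richer in the high bin were poorer in the low bin (-1.79 and -2.44). The low over bulk score was -1.39. Unlike KLF3, NFE2L2 therefore rests on 4 guides of one sign and 1 of the other, and it did not reach a fold of 2.

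Both genes stood apart from the next. TOX4, which encodes an HMG-box protein, had 0.49 ± 0.32 (SD, n = 5 guides) with all guides richer, and CREB1, a leucine zipper factor that answers to cyclic AMP, had 0.49 ± 0.26 (n = 3). The homeobox gene MEIS1 and the zinc finger genes ZIC1, ZNF331 and ZNF285 were among the next, at 0.44, 0.45, 0.44 and 0.43. On the other side, EVX2 at -0.60 was just inside the fold and SIX5 at -0.58 just outside. RPA3 (-0.67), MYF6 (-0.63) and KLF16 (-0.61) reached the fold but failed on the signs of their guides, with 2 guides above 0 in each.

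**Figure D2:**
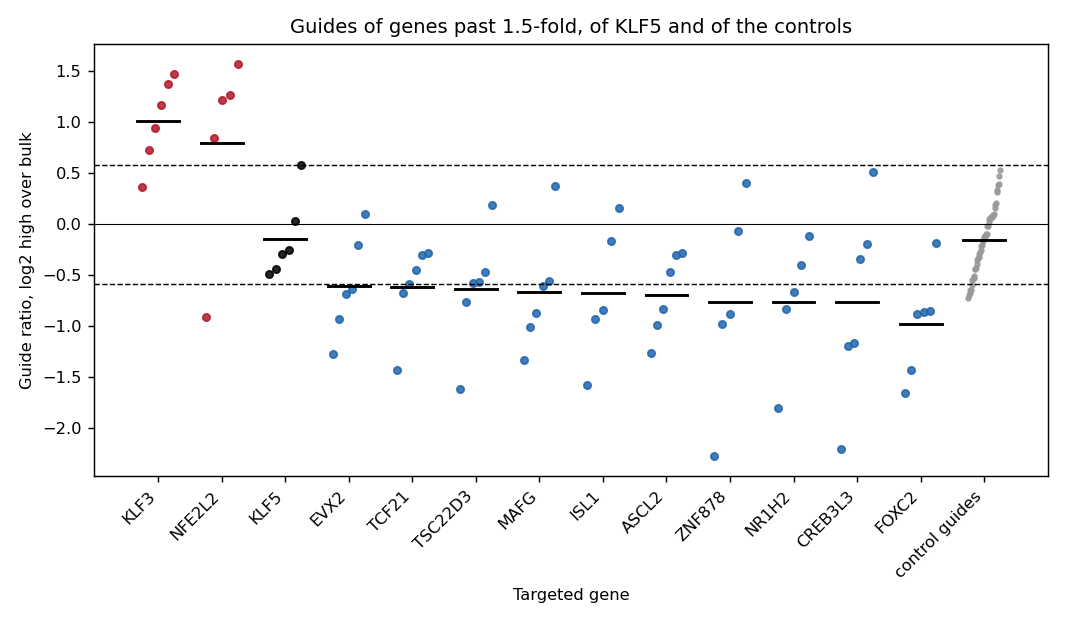
Ratio of each guide (log2 high over bulk) for KLF3, NFE2L2, KLF5, 10 of the poorer genes and for the 49 control guides; black bars are means and dashed lines mark 1.5-fold. Each KLF3 guide is above 0, 1 NFE2L2 guide is far below the other 4, and most poorer genes combine guides near 0 with 1 or 2 guides under -1.

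KLF5, the gene whose activity the stain reports, barely moved. Its score was -0.14 ± 0.40 (SD, n = 6 guides), with 2 guides above 0 and 4 below. The control guides themselves had a median of -0.13 in this contrast. The guide ratios were 0.59, 0.03, -0.26, -0.29, -0.44 and -0.49, all but the highest inside the range of the control guides. The mean normalized count was 1200.3 in the high bin and 1401 in bulk, but 6288 in the low bin. In low over bulk its score was 1.63 ± 1.34, and in the second pair 1.62 ± 1.22. The low library of the second pair had a Pearson's r of 0.98 with the first on log2 normalized counts. Whether the second pair came from a separate sort is not known, so it is not read as a repeat. By mean over guides, KLF5 thus gathered in the low bin without a matching loss past the fold from the high bin. The guides that gathered most in the low bin had low over bulk ratios of 2.95, 2.91 and 2.42, and high over bulk ratios of -0.49, -0.26 and 0.59. Not every guide followed, since the rest had 1.36, 0.28 and -0.11 in low over bulk. Their high over bulk ratios were -0.44, 0.03 and -0.29. In the genome-wide screen KLF5 had -1.81 ± 1.14 (n = 4 guides) in high over bulk, where its guides ran from -3.27 to -0.56 and all 4 were below 0.

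The 11 poorer genes spanned several classes of DNA-binding domain. FOXC2, a forkhead factor of mesenchymal and lymphatic development, was lowest at -0.98 ± 0.52 (SD, n = 6 guides), with all 6 guides poorer. Its mean normalized count was 647 in the high bin, 1249.5 in bulk and 472 in the low bin. Ratios ran from -1.66 to -0.19, and 5 of 6 guides lay below every control guide. The other genes with guides of a single sign were NR1H2, a nuclear receptor for oxysterols, and ASCL2 and TCF21, basic helix-loop-helix factors of intestinal stem cells and of mesenchyme. NR1H2 had -0.76 ± 0.64 (n = 5), ASCL2 -0.69 ± 0.40 (n = 6) and TCF21 -0.62 ± 0.43 (n = 6). The remaining 7 genes each had 1 guide of the other sign.

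Leucine zipper factors were among those 7. CREB3L3, a membrane-bound factor of the liver and gut, had -0.77 ± 0.95 (n = 6), and its guides ran from -2.20 to 0.51. MAFG, a small MAF protein that pairs with NFE2L2 on DNA, had -0.66 ± 0.58 (n = 6). The homeobox genes ISL1, a marker of islet cells, and EVX2 had -0.67 ± 0.68 (n = 5) and -0.60 ± 0.49 (n = 6). TSC22D3, a leucine zipper protein induced by glucocorticoids, had -0.63 ± 0.58 (n = 6). ZNF878, a zinc finger gene, had -0.76 ± 1.02 (n = 5), and its 5 guides ran from -2.28 to 0.40.

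The same genes were as poor or poorer in the low bin. Low over bulk scores of the 10 named here ran from -1.96 for FOXC2 to -0.93 for TSC22D3, and in the second pair from -2.16 for FOXC2 to -0.84 for ASCL2. For CREB3L3 low over bulk was -1.82 and for ZNF878 -1.80. High over bulk and low over bulk share the bulk library, so their values are given side by side only. When the bulk library of the second pair replaced the first, these genes had high over bulk scores from -0.94 to -0.68. By mean log2 ratio, these genes were thus lower at both ends of the Serpin B5 scale than in the middle. Not every guide followed. For ZNF878 the guides ran from -5.17 to 0.84 in low over bulk, and the mean normalized count was 2376 in the low bin and 2314 in bulk. The part that Serpin B5 level plays in the high over bulk score of these genes was not tested. With the linear trend on the low over bulk ratio of the second pair taken out, 0 of the 11 were past the fold. That setting raises genes that are poor in the low bin by its construction, as all 11 are, so no conclusion is drawn from it. Without the guide farthest from 0 in each gene, 2 of the 11 were past the fold, FOXC2 among them.

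**Figure D3:**
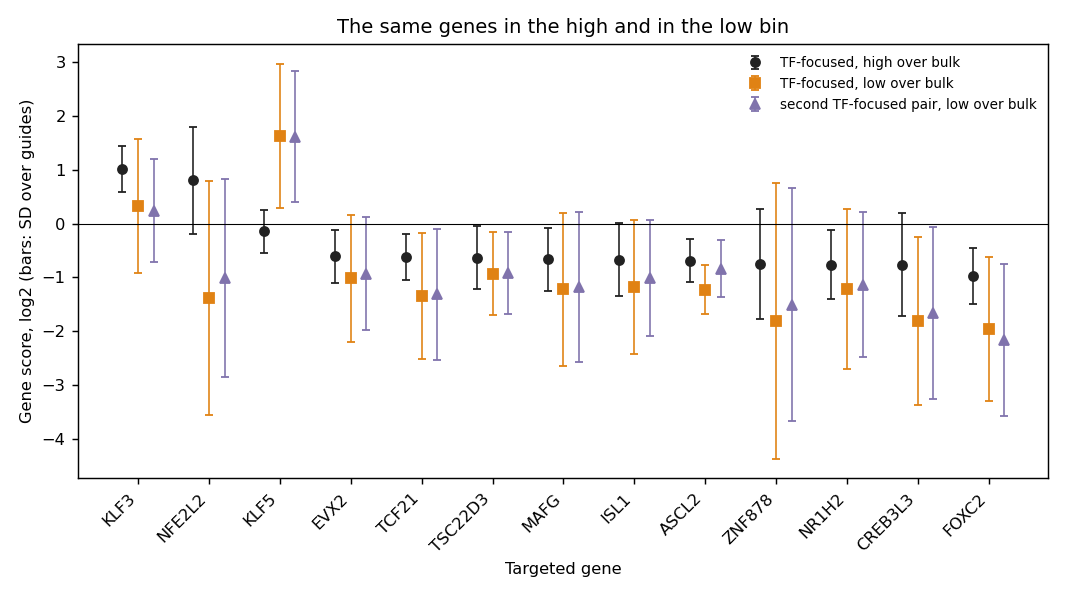
Gene scores (log2, mean over guides, bars SD over guides) of KLF3, NFE2L2, KLF5 and 10 of the poorer genes in high over bulk (circles), low over bulk (squares) and low over bulk of the second pair (triangles). The poorer genes lie below 0 in each, KLF5 is above 0 only in low over bulk (both pairs), and KLF3 is highest in high over bulk.

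Scores followed the base composition of the targeted genes. Over the 1432 genes with a coding sequence in the annotation, Pearson's r between score and coding GC content was -0.38 and Spearman's rho -0.40, across genes, which are not independent replicates. Over 5 bins of equal gene number by coding GC, the median score stepped down from 0.07 (35.4 to 43.8% GC) through 0.03, -0.02 and -0.08 to -0.14 (65.4 to 78.9% GC). Above 0 lay 204 of 287 genes in the bin of lowest GC and 55 of 287 in that of highest. Across the same genes the genome-wide high over bulk score had an r of -0.02 with coding GC (1426 genes). The trend was not confined to the high bin of the TF-focused library. Low over bulk of the second pair had an r of -0.30 with coding GC, and its medians fell from 0.05 in the bin of lowest GC to -0.35 in that of highest. Of the 11 poorer genes, 9 lay above the median coding GC of 55.5%, with FOXC2 at 70.7% and ASCL2 at 75.3%. KLF3 stood at 51.2% and NFE2L2 at 43.1%. Bulk abundance moved with the score too, with an r of 0.39 between score and log2 mean bulk count, and the poorer genes had a median of 1432 normalized counts in bulk against 2055 for all genes tested. The part of either in the scores was not tested. With the linear trend on coding GC taken out, KLF3 and NFE2L2 were still past the fold and 6 of the 11 poorer genes were, FOXC2, CREB3L3, NR1H2, ZNF878 and ISL1 among them.

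**Figure D4:**
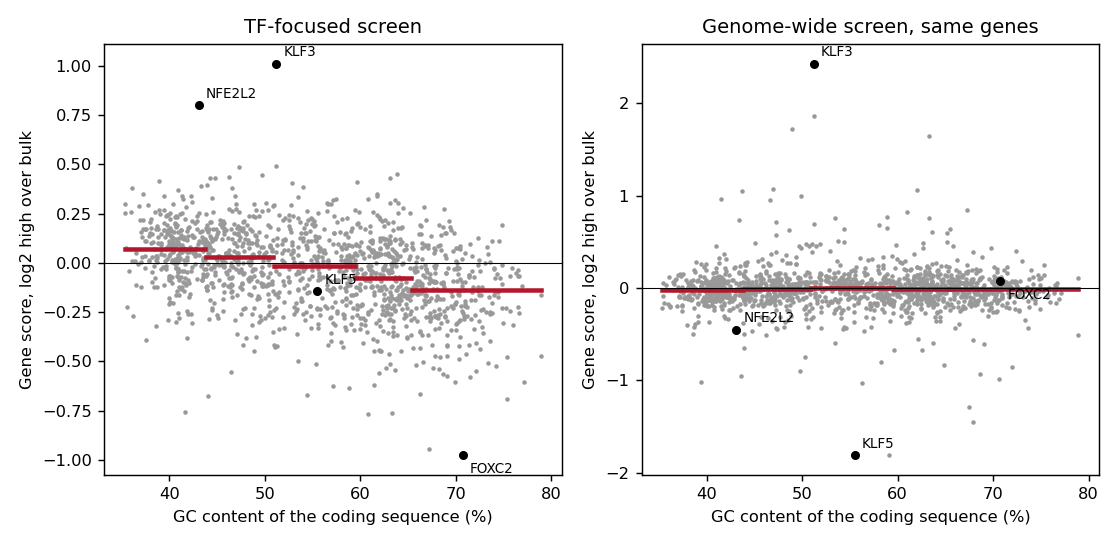
Gene score (log2 high over bulk) against the GC content of the coding sequence, in the TF-focused screen (left) and for the same genes in the genome-wide screen (right); red bars are medians over 5 bins of GC content, and the vertical scales differ. The medians step from 0.07 to -0.14 on the left and stay close to 0 on the right.

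By family, counts are to be read against all genes tested, of which 0.139% were richer, 0.767% were poorer and 45.4% had a score above 0, with a median of -0.02. Among 26 KLF and SP factors KLF3 alone was past the fold. The median was -0.14 at a median coding GC of 60.1%, and 7 of 26 were above 0. KLF13 had -0.52 ± 0.53 and KLF1 -0.49 ± 0.54 (n = 6 guides each). The 13 members of the NRF2 and MAF list had a median of -0.26, with NFE2L2 richer and MAFG among the poorer. MAF itself, at -0.58 ± 1.04 (n = 5), lay just outside the fold. BACH1, a repressor at the sites that NFE2L2 binds, had 0.40 ± 0.50 (n = 3). Of 46 forkhead factors FOXC2 alone was past the fold (median -0.11), and FOXK2 had -0.53 ± 0.33 and FOXD1 -0.48 ± 0.67. Of 29 pancreatic and foregut lineage factors, ISL1 alone passed (median -0.15), while FOXA3 had -0.37, NKX6-1 -0.34 and ONECUT1 0.32.

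In the lists without a gene past the fold, medians and leading members were as follows. AP-1 and ATF factors (25 tested) had a median of -0.02, with BATF3 at -0.56 ± 1.72, JUND at -0.51 ± 0.40 and CREB1 at 0.49. BATF3 had 4 of 6 guides above 0, and its score was set by 1 guide at -4.05. ETS factors (27) had 0.04, with SPIB at -0.52 ± 0.50 and ETS2 at 0.40 ± 0.76. The ETS2 guides were split, 3 above 0 and 3 below. The 4 TEAD factors, partners of YAP, had 0.06, led by TEAD3 at 0.41 ± 0.50, and the 4 TCF and LEF factors 0.05, led by LEF1 at 0.29. With a minimum mean normalized count of 100, TEAD3 kept 6 of its 7 guides and had 0.28. HOX cluster factors (39) had -0.10 and 9 above 0, with HOXD11 at -0.42 ± 0.32. SOX factors (20) had -0.07, GATA factors (7) -0.19, squamous and epithelial lineage factors (22) -0.09 and repressors of the epithelial state (11) -0.09. GATA6, a factor of classical pancreatic tumours, had -0.30 ± 0.60, SOX9 -0.27 ± 0.35 and TCF3 -0.30 ± 0.21. Nuclear receptors of subgroups A to F and steroid receptors (42) had 0.02, and the search that built this list did not take in NR1H2. The MYC network (13) had 0.03, the SMAD, TGIF and ID factors (14) 0.02, NF-kappaB, IRF and STAT factors (21) 0.00, and E2F and cell cycle factors (14) 0.04. General and chromatin-linked DNA-binding factors (26) had 0.04, and the factors of hypoxia, the aryl hydrocarbon response and the clock (13) 0.05. The largest family, 431 ZNF zinc finger proteins with a median coding GC of 43.8%, had a median of 0.02 with 1 gene poorer (ZNF878), and the 36 ZBTB factors had 0.07 with 23 above 0. Ordered by median coding GC, the 10 lists of lowest GC all had medians above 0 and the 8 of highest GC all had medians below 0, with both signs between them.

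KLF3 also had the highest score in the genome-wide screen among the TF-library genes past the fold there. In that screen 214 of 19103 genes were richer in the high bin, 1.12%, and 202 were poorer, 1.06%, under the same rule. Of the 1426 genes tested in both screens, KLF3 alone was past the fold in both. Genome-wide its score was 2.43 ± 0.78 (SD, n = 3 guides), with ratios of 1.74, 2.28 and 3.27. No gene was past the fold in opposite directions. NFE2L2 had -0.45 ± 0.08 genome-wide (n = 4), with each guide below 0, against 0.80 here, and the difference was not tested. None of the 11 poorer genes was past the fold genome-wide. Their scores there ran from -0.42 for ISL1 to 0.14 for ASCL2, with FOXC2 at 0.08, and 5 of 11 were below 0. Across the 1426 genes r between the screens was 0.07 and rho -0.01, as a description, and r was 0.03 without KLF3.

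Seen the other way, 21 TF-library genes were richer in the genome-wide high bin, and 16 of them had a score above 0 here, where 45.4% of the 1426 did. Their median here was 0.08. TGIF1, a corepressor of TGF-beta signalling, had 0.09 ± 0.60 here and 1.86 there. ZNF217 had 0.23 ± 1.05 (n = 3 guides) and 1.72, MYRF -0.05 ± 0.35 and 1.65, and PPARG, a nuclear receptor of lipid metabolism, 0.27 ± 0.38 and 1.08. EHF, an epithelial ETS factor, had 0.04 and 1.00, and TOX4 had 0.49 and 0.69. In the opposite direction 18 genes were poorer genome-wide, of which 12 had a score below 0 here, where 54.6% did, with a median of -0.09. TADA2B, an adaptor of the SAGA acetyltransferase, had 0.03 ± 0.25 here and -1.81 there. SOX9 had -0.27 and -1.45, ID1, an inhibitor of helix-loop-helix factors, -0.42 ± 0.45 and -1.28, and TFAP2A -0.26 ± 0.46 and -0.80. MEIS2, a homeobox factor, had a score of the opposite sign, at -0.50 ± 1.08 here against 0.76 genome-wide, but its guides here were split, 3 above 0 and 3 below. TCF3 ran the opposite way with all 6 guides below 0 here, at -0.30 ± 0.21 against 0.84.

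**Figure D5:**
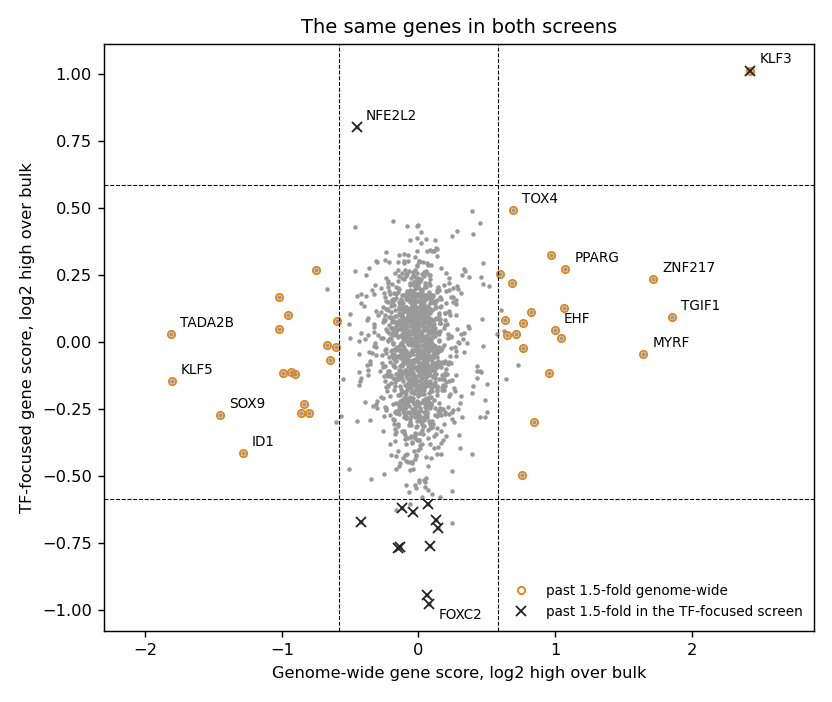
Gene scores (log2 high over bulk) of the 1426 genes tested in both screens, genome-wide across and TF-focused up; open circles are past 1.5-fold genome-wide, crosses are past it in the TF-focused screen and dashed lines mark 1.5-fold. KLF3 alone carries both marks, and the other genes past the fold in one screen lie near 0 or short of the fold in the other.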

How the data were processed

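Guide counts were analysed from AsPC-1 cells sorted on Serpin B5, with 1 library per bin. The authors deposited guide counts that were not normalized. Their methods name MAGeCK with maximum likelihood estimation for these screens, and that tool was not used here because a bin has 1 library. The labels name hg38 as a build, and the annotation used here (GENCODE release 44) is of that build. Size factors (median of ratios over all guides of a table) scaled the deposited counts, and a guide was dropped if its normalized counts averaged under 30 across the 3 libraries, which kept 8723 of 8739 guides, 49 of 50 control guides among them. The guide ratio was log2 of high + 5 over bulk + 5 (normalized counts), less the median over guides against genes. Averaging these ratios gave the score of each gene that kept at least 3 guides. A gene was past the fold at 1.5-fold with at least 80% of its guides of one sign. Gene names came from guide names, since the deposited gene column shortens names for 79 guides. The 1 guide against Rosa26, not a human gene, was not counted as a gene.

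Named genes were KLF5 and KLF3, up to 15 genes past the fold on each side, up to 4 members of each of 22 gene lists and genes past the fold in both screens. Genes just outside the fold and TFs past the fold genome-wide were added after their values had been seen. Members and lists were chosen with earlier results of these data known. Coding GC content came from canonical transcripts. The scoring was tested on simulated data. Python 3 with numpy, pandas and matplotlib was used, and 14 alternative settings and 2 more chosen after seeing the data were run. Some items are not reported here.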

Additional observations from a re-analysis of the deposited data

Results flagged for a closer look

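NFE2L2 was flagged because its guides ran one way in one screen and the other way in the other. Its score was 0.80 in the TF-focused high over bulk comparison, with 4 of 5 guides above 0, and -0.45 in the genome-wide one, with 4 of 4 guides below 0. The difference was not tested, since each bin was 1 library.

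NKX2-5 was flagged by data outside the main comparison. Between the bulk library of the second TF-focused table and that of the first, its score was -0.68, past 1.5-fold, and it was the only gene to pass the rule between these bulk libraries, where the 49 control guides had a median of 0.02 and an SD of 0.24. Its high over bulk score was -0.57 against the first bulk library and 0.11 against the second.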

How the results depend on the processing

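KLF3 and NFE2L2 remained past the fold under every alternative except a fold of 2 and the rule that every guide share the sign, which each left 1 richer gene, KLF3. The alternative size factors, from total counts or from control guides, could hardly change a score. Each ratio is centred afterwards on the median of gene-targeting guides, which cancels the scaling apart from the 5 added to each count. No conclusion is drawn from these settings, whose values are counted among the 1208 below. The count of poorer genes, 11, became 2 without the guide farthest from 0 (2 of them among the 11), 6 with summed counts (5 among the 11), 20 with the bulk library of the second table (11 among the 11), 0 at a fold of 2 and 4 where every guide had to share the sign (4 among the 11). With the linear trend on coding GC removed it was 6, all among the 11. With the linear trend on the second pair's low over bulk ratio removed, 1 gene was poorer, KLF5 at -0.68, and none of the 11. The last setting lowers genes that are rich in the low bin by its construction, as KLF5 is. It likewise raises genes that are poor there, as the 11 are. Among 1208 values of 93 named genes under the alternatives, 1197 moved by less than the SD over guides, 11 moved by more and 0 of the genes past the fold changed sign. No leave-one-out was possible with 1 library per bin. No paired analysis was possible because each bin of a screen has 1 library. Counting gave a median error of 0.05 on a guide ratio, against an SD of 0.33 among control guides. What the spread between repeated sorts would be is not known from these libraries.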

Other observations

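The low libraries of the TF-focused tables nearly matched guide by guide (Pearson's r of 0.98 on log2 normalized counts over 8739 guides). The bulk libraries did so too (r of 0.98), and 4 guides differed by 4-fold or more between them. All 4 were scarcer in the second library. A guide of STAT5B had 2553 raw counts in the first and 20 in the second, and guides of KDM5A had 3298 and 599, of ZNF513 1797 and 276, and of ZNF597 3643 and 580.

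The TF library also holds guides against genes that most dividing cells need. In high over bulk PCNA, the sliding clamp of replication, had -0.56 ± 0.47 (SD, n = 4 guides) and the replication factor RPA3 had -0.67 ± 0.91 (n = 4), while CDK1 had 0.17 ± 0.77 (n = 5), CDK9 0.06 ± 0.27 (n = 6), RPL9 0.10 ± 0.24 (n = 4) and POLR2A 0.05 ± 0.44 (n = 8). In the genome-wide screen the same comparison gave 0.24 for PCNA and 0.25 for RPA3, but -0.38 for CDK1, -0.33 for CDK9, -0.95 for RPL9 and -1.02 for POLR2A.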
